A study of Arabidopsis thaliana with 20 samples.

Results

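The genes described here are the *A. thaliana* genes whose description in the deposited table contains the words "disease resistance" and does not contain "dirigent". There were 193 such genes among the 33296 in the table. Most of them encode NLR proteins, the intracellular immune receptors of plants, but the words also took other kinds of gene. Of the 193 genes, 106 were placed in the TIR class, 49 in the CC class and 7 held an NB-ARC domain without a class. A further 20 encode receptor-like proteins, which sit at the cell surface, and 11 encode other proteins. The class came from the description or the RefSeq product name where either names one. Otherwise it came from a domain search of the translated genes, in which 104 genes matched a TIR profile and 159 an NB-ARC profile. By this search 2 genes were placed in the TIR class. For 24 of the 49 CC genes no CC domain was required. They had an NB-ARC match, no TIR match and a tryptophan (W) ending the kinase-2 motif, a short pattern within the NB-ARC domain.

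An NLR protein carries a nucleotide-binding NB-ARC domain and leucine-rich repeats, and it detects a pathogen effector or the damage an effector does to a host protein. The N-terminal domain separates the classes. A TIR domain is an enzyme whose small-molecule products are read by EDS1 together with PAD4 or SAG101, which then engage the helper NLRs of the ADR1 and NRG1 families. A CC domain instead lets the activated receptor assemble into a channel in the plasma membrane, and several CC receptors also need NDR1. In Arabidopsis leaves, high NLR expression is known to bring on autoimmunity and stunted growth, and the genes lie in clusters of close relatives.

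The plants were Col-0, grown on half-strength MS agar with 1% sucrose in Petri dishes, and each library was made from the pooled shoots of the 10 plants of a dish. Dishes of both groups were sealed with Parafilm, as the study's text has it. Non-aerated dishes were only opened and closed again for a moment 1 day after vernalization, whereas aerated dishes then received lids with syringe filters, through which air was pumped. The labels place the harvest 15 days after vernalization. The study's results name another day, and its methods a time near that of the labels. Each group had 4 replicates. A second set of Micropore-sealed, non-aerated and aerated dishes, also 4 replicates each, had only the authors' comparisons in its file and was not used here. Aeration changes the gas and the air movement in the dish together, and their parts cannot be told apart. Because shoots were pooled, a change in cell makeup and a change in RNA per cell cannot be told apart either.

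The 8 libraries held 34330488 to 60255818 reads assigned to genes. The first principal component took 54% of the variance and separated the 4 non-aerated from the 4 aerated libraries. Within the groups, aerated library 5 stood apart from the other aerated libraries on the first component and non-aerated library 8 from the other non-aerated libraries on the second. The libraries are named by the numbers in their column headers, which do not pair them. Group means of 4 leaf genes lay between 80798 and 890095 normalized counts and those of 7 root markers between 0.6 and 290, and 1 leaf gene, LHCB1.1, was lower in non-aerated shoots (log2 fold change -0.67 ± 0.19 SE, adjusted p = 0.0338, limma), a call that 1 of the 8 fits with a library left out kept. The libraries were unstranded, so reads of overlapping genes on opposite strands cannot be told apart.

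Non-aerated shoots had higher mRNA levels of many TIR genes and of few CC genes. Of the 193 genes, 149 were tested, since they reached 10 normalized counts in 4 or more libraries. At an adjusted p under 0.05 (limma on log2(normalized count + 1), Benjamini-Hochberg over all 20160 genes tested), 36 of the 149 were higher and 2 lower in non-aerated shoots, against 12.4% and 10.0% of all genes tested. At least 2-fold increases were found for 27, against 5.24% of all genes tested, and no gene of the family fell at least 2-fold, against 2.63%. Over the 149 genes the log2 fold change had a median of 0.33, whereas over all genes tested the median was -0.002. In 40 of the 149 genes all non-aerated libraries lay above all aerated libraries, which held for 14.3% of all genes tested, and the opposite held for 5, against 13.0%.

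The TIR class held 31 of the 36 higher genes. Of its 106 genes 83 were tested, 31 were higher, 25 of them at least 2-fold, and none was lower, with a median log2 fold change of 0.47 and a range of -0.69 to 3.07. Of the 49 CC genes 40 were tested, 3 were higher, 1 of them at least 2-fold, and none was lower, with a median of 0.18 and a range of -0.38 to 1.34. These CC counts include the 5 helper NLRs described below, and ADR1 is 1 of the 3 higher genes. The TIR count includes AT1G65850, which had 16.7, 42.1, 24.4 and 21.1 normalized counts in the non-aerated libraries, against 1.7, 8.0, 7.9 and 8.6 in the aerated libraries, and so was tested only through the group in which it is high. Without it 30 of 82 tested TIR genes were higher, 24 of them at least 2-fold. As shares of all tested in each class, 37.3% of tested TIR genes and 7.5% of tested CC genes were higher, beside 12.4% of all genes tested. The 3 tested NB-ARC genes without a class gave no call. Of 16 tested receptor-like protein genes 1 was higher and 2 were lower. Their median of 0.458 was close to that of the TIR class, with a range of -0.695 to 1.158, so such a median is not particular to TIR genes. Of 7 tested genes of other kinds 1 was higher, with a median of 0.087. Whether TIR and CC genes differ was not tested, since members of a class are not replicates. The 52 tested TIR genes without a call had a median of 0.22. Among them 3 lay higher in all non-aerated libraries and 1, AT5G40100, higher in all aerated libraries (log2 fold change -0.48), beside 14.3% and 13.0% of all genes tested. Those shares count called genes too, and in 30 of the 31 called TIR genes the groups did not overlap. Leaving out called genes lowers such counts by itself, so this is not a like comparison. With DESeq2 on the recovered reads 46 members were higher (6 CC and 36 TIR), where 15.6% of all genes were. With edgeR on the same reads there were 35, where 12.5% of all genes were, and with no filter on low values 33 of 180, where 9.24% were.

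**Figure D1:**
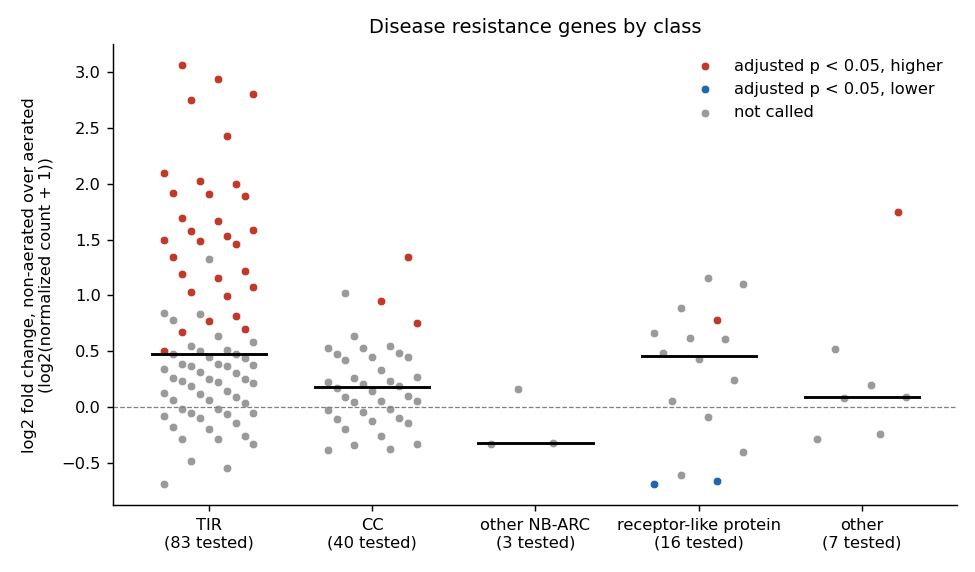
The log2 fold change of each tested gene (y axis, non-aerated over aerated, on the log2(normalized count + 1) scale) by class (x axis), with points coloured by the limma call and a black line at the class median. The TIR points reach 3.07 and include 31 of the 36 higher genes, whereas the CC points stay at or below 1.34.

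Both unusual libraries moved with the class levels. The median deviation of the 83 TIR genes from each gene's own mean over the 8 libraries was 0.05, 0.38, 0.17 and 0.62 on the log2 scale in non-aerated libraries 2, 4, 6 and 8, against -0.19, -0.07, -0.64 and -0.16 in aerated libraries 1, 3, 5 and 7. Hence every non-aerated library lay above every aerated library, and libraries 8 and 5 were the extremes. For the 40 CC genes the medians were -0.10, 0.17, 0.01 and 0.17 in the non-aerated libraries, against 0.03, 0.13, -0.46 and -0.03 in the aerated libraries, and the groups overlapped. All genes tested had medians between -0.001 and 0.006 in every library. Of the 31 higher TIR genes, 27 had their highest value in non-aerated library 8 and 25 their lowest in aerated library 5. Without library 5 the TIR median was 0.37 with 24 genes higher, the CC median was -0.006 with 2 genes higher, and the median of all members was 0.185 with 27 genes higher, where 10.1% of all genes were higher. Without library 8 the TIR median was 0.36 with 29 genes higher, and 34 members were higher where 13.5% of all genes were. Without aerated libraries 1, 3 and 7 in turn, 33, 35 and 29 members were higher, where 10.6%, 9.58% and 8.35% of all genes were. Without non-aerated libraries 2, 4 and 6 in turn, 37, 29 and 35 members were higher, where 10.0%, 10.6% and 10.2% of all genes were. The CC count was 2 without aerated library 5 or 7 and without non-aerated library 4 or 8. The part of these libraries' own condition in the result was not tested.

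**Figure D2:**
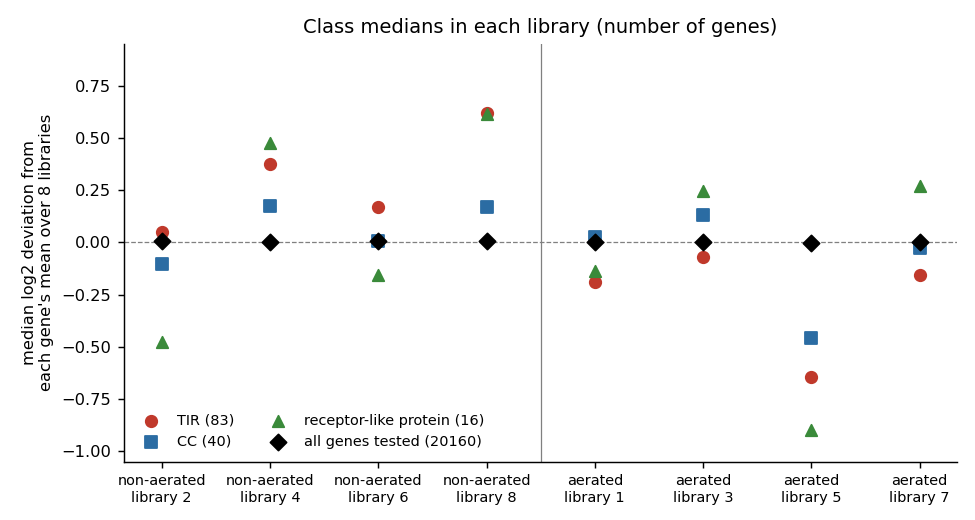
Median deviation of each class from the genes' own means over the 8 libraries (y axis, log2 scale) in each library (x axis, the 4 non-aerated libraries left of the line and the 4 aerated libraries right of it). TIR medians are 0.05 or more in the non-aerated libraries and -0.07 or less in the aerated libraries, whereas CC and receptor-like protein medians overlap between the groups.

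The largest increase was that of AT4G14370, a TIR-NB-ARC-LRR gene at chr4:8279634-8283535 in the RefSeq TAIR10.1 annotation. It had 1172.6, 1576.6, 1213.9 and 2909.7 normalized counts in non-aerated libraries 2, 4, 6 and 8, against 211.7, 342.6, 104.2 and 172.0 in aerated libraries 1, 3, 5 and 7. All non-aerated libraries were above all aerated libraries, and the log2 fold change was 3.07 ± 0.37 (SE, adjusted p = 0.000552). Values of other genes below follow the same order of libraries.

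A set of related genes on chromosome 5 followed. AT5G41550 (chr5:16617232-16620824) had low counts, 84.6, 121.5, 106.3 and 242.6 in the non-aerated libraries, against 24.4, 24.0, 5.3 and 18.9 in the aerated libraries (log2 fold change 2.94 ± 0.48, adjusted p = 0.00244). AT5G41750 (chr5:16693832-16699028) had 2298.8, 3185.7, 2654.1 and 8270.4 normalized counts in the non-aerated libraries, against 425.9, 893.1, 365.2 and 552.8 in the aerated libraries (2.75 ± 0.40, adjusted p = 0.00124). Its neighbour AT5G41740 (chr5:16688626-16693119) lies 712 bases away on the same strand. It had 3843.1, 4743.1, 4034.9 and 10457.6 normalized counts in the non-aerated libraries, against 1317.0, 1855.9, 867.6 and 1085.0 in the aerated libraries (2.095 ± 0.32, adjusted p = 0.00182). In all 3 genes the groups did not overlap and library 8 was the highest, and without it the log2 fold changes of AT5G41550, AT5G41750 and AT5G41740 were 2.63, 2.35 and 1.765. Of the 100-base stretches of AT5G41740 and AT5G41750, 5.43% and 4.94% occur elsewhere as well. The study does not state whether reads from such stretches were dropped or counted. AT5G41540, beside AT5G41550, had 17.7, 31.3, 3.2 and 0 normalized counts in the non-aerated libraries and was at 0 in all aerated libraries, too low to test.

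These 3 genes also share sequence before their annotated starts. The longest run of bases common to the 250 bases before each start was TTGGTCCTCGACGA, and among 27443 such windows of protein-coding genes only these 3 hold it on either strand (0.0109%). The run was looked for after the windows had been seen and was taken from them, so its absence from other windows is no support for a role. The run begins 167, 124 and 14 bases before the starts of AT5G41550, AT5G41740 and AT5G41750. In AT5G41750 it ends where the window ends, so a longer shared stretch could not be seen. The windows are shown 5′ to 3′ from RefSeq TAIR10.1, with the shared run in capitals.
AT5G41550 (chr5:16620825-16621074, minus strand): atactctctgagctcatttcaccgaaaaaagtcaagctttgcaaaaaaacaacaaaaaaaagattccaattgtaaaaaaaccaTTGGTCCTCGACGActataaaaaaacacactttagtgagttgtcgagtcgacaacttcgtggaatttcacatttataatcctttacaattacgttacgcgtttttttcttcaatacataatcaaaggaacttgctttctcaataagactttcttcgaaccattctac
AT5G41740 (chr5:16688376-16688625, plus strand): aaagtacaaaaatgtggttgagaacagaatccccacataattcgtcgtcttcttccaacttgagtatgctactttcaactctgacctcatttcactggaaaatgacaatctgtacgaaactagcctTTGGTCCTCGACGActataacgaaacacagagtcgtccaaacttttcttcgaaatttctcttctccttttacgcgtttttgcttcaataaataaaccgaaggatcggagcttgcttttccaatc
AT5G41750 (chr5:16693582-16693831, plus strand): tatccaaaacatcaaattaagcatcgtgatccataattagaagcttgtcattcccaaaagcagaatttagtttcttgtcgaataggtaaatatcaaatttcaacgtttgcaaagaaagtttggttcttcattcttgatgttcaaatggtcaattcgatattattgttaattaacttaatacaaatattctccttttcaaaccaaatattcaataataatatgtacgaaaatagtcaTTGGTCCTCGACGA

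The remaining genes of the 10 largest increases, taken among members that averaged at least 50 normalized counts, were spread over chromosomes 1, 4 and 5. AT1G66090, which encodes a short TIR-NB-ARC protein of 429 residues, had 503.6, 951.3, 521.9 and 4103.2 normalized counts in the non-aerated libraries, against 108.4, 191.9, 120.0 and 169.4 in the aerated libraries (2.80 ± 0.58, adjusted p = 0.00729). Library 8 stood far above the others, and without it the log2 fold change was 2.13. AT5G44910, whose 241-residue product had a TIR match but no NB-ARC match, had 907.8, 1776.3, 266.8 and 852.9 normalized counts in the non-aerated libraries, against 152.0, 198.7, 96.3 and 145.3 in the aerated libraries (2.43 ± 0.48, adjusted p = 0.00595). Here library 4, not library 8, was the highest. AT4G19520, which encodes a long TIR protein of 1744 residues, had 7353.5, 7971.0, 12984.7 and 16610.1 normalized counts in the non-aerated libraries, against 3410.2, 3743.8, 1919.7 and 2612.8 in the aerated libraries (1.91 ± 0.28, adjusted p = 0.00151). AT4G11170 averaged 183 ± 95.4 normalized counts in non-aerated and 42.7 ± 15.4 in aerated shoots (SD, n = 4 each), and AT5G22690 averaged 2720 ± 1180 and 698 ± 126. Their log2 fold changes were 2.00 ± 0.40 (adjusted p = 0.0062) and 1.89 ± 0.26 (adjusted p = 0.000986), with no overlap between the groups.

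**Figure D3:**
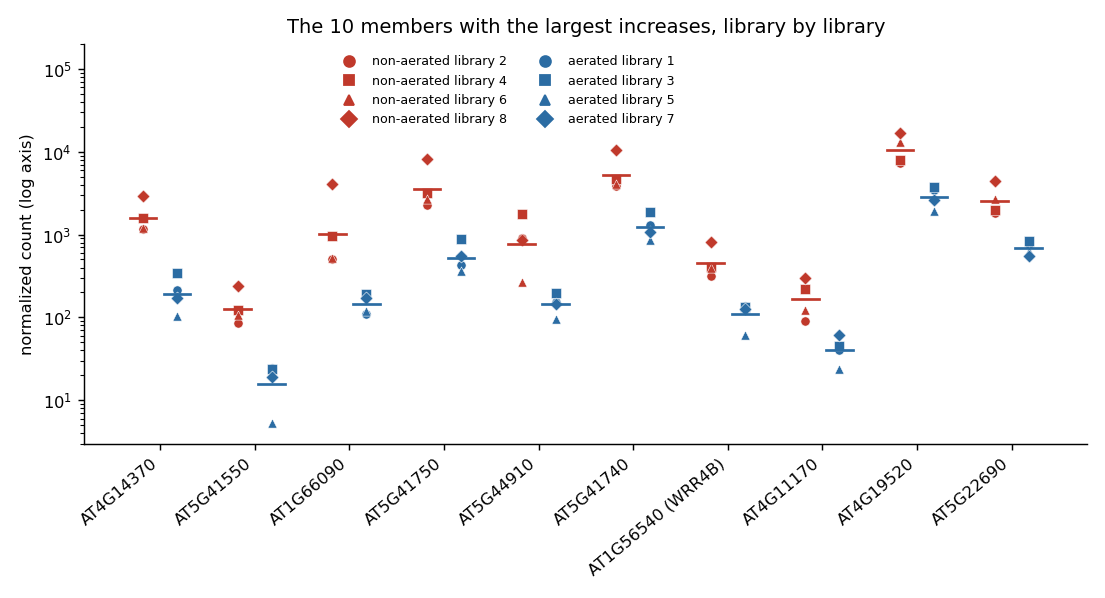
Normalized counts (y axis, log scale) of the 10 genes with the largest increases among members averaging at least 50 normalized counts (x axis), with non-aerated libraries in red left of aerated libraries in blue, a symbol for each library and a line at the mean of log2(normalized count + 1). In each of the 10 genes all red points lie above all blue points, and the red diamond of library 8 is the highest in 9 of them, the exception being AT5G44910.

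The windows before AT4G14370, AT1G66090 and AT5G44910, the largest increases outside the chromosome 5 set above, are shown for the letters of the W-box core, TTGAC, the element bound by WRKY transcription factors in defence genes. The core was searched as TTGAC and, for the other strand, as GTCAA, which cannot overlap each other. Of the 10 leading genes 8 held it, 5 of them at least 2 times, and AT5G22690 and AT5G41740 did not. Of the 250-base windows of all protein-coding genes, 44.9% held the core and 14.1% held it at least 2 times. For the windows of all 193 members the shares were 56.5% and 23.3%. The core was present in 67.7% of the windows of the 31 higher TIR genes, in 42.3% of those of the 52 tested TIR genes without a call and in 56.8% of those of the 37 tested CC genes without a call. The longer forms TTGACC and TTGACT, which contain the core, were present in 58.1%, 34.6% and 43.2% of the same groups and in 28.4% of all windows. Among all protein-coding genes called higher, 54.1% held the core, 22.8% held it at least 2 times and 38.0% held a longer form. A match is a run of letters and not a shown binding site. The matches begin 103 and 88 bases before the start of AT4G14370, 122 and 9 before that of AT1G66090 and 159 and 116 before that of AT5G44910. Capitals mark them.
AT4G14370 (chr4:8283536-8283785, minus strand): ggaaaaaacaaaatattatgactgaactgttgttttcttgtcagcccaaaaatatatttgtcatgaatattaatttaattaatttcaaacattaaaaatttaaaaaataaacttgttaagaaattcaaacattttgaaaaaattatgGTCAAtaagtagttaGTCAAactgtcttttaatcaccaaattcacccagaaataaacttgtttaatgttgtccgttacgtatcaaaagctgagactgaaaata
AT1G66090 (chr1:24601783-24602032, plus strand): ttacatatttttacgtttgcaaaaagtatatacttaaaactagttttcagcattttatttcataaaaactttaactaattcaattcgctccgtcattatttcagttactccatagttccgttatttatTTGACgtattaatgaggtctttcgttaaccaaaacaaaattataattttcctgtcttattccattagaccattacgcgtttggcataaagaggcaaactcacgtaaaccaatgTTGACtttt
AT5G44910 (chr5:18137099-18137348, plus strand): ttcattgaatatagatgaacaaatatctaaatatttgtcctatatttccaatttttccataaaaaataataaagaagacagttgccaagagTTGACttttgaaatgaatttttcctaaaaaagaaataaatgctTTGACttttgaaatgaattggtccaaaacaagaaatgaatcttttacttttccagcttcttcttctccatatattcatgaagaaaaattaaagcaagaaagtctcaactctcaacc

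Of the TIR receptors tested from the list of known receptors, 6 of 14 were higher and none was lower, beside 12.4% and 10.0% of all genes tested. The list holds CHS3, which lies outside the rule. It leaves out the named members TAO1 (0.09 ± 0.17, adjusted p = 0.731) and LAZ5 (0.58 ± 0.20, adjusted p = 0.0625), which were not called. RPS6, which recognizes the bacterial effector HopA1, had 5864.1, 6863.4, 8291.9 and 11062.6 normalized counts in the non-aerated libraries, against 2990.2, 3296.1, 1911.8 and 2819.2 in the aerated libraries (1.53 ± 0.22, adjusted p = 0.00113). The white rust resistance genes WRR4A (AT1G56510) and WRR4B (AT1G56540) were both higher. WRR4A had 5858.5, 5262.7, 9495.1 and 11032.4 normalized counts in the non-aerated libraries, against 2907.9, 3099.7, 2182.1 and 2003.3 in the aerated libraries (1.59 ± 0.25, adjusted p = 0.00178). WRR4B had 312.2, 400.5, 398.6 and 817.5 in the non-aerated libraries, against 136.1, 132.5, 62.0 and 127.2 in the aerated libraries (2.03 ± 0.33, adjusted p = 0.00232). The groups overlapped in none of these genes. DM10 (AT5G58120), a locus of hybrid necrosis, rose by 1.46 ± 0.32 (adjusted p = 0.00993) and RPP1, a downy mildew receptor, by 1.03 ± 0.20 (adjusted p = 0.00522). RPP4, another downy mildew receptor, was at the edge of the threshold (0.77 ± 0.25, adjusted p = 0.0496), and its call remained in 1 of the 8 fits that left out a library.

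The other named TIR receptors did not pass. SNC1, whose gain of function causes autoimmunity, had 8081.1, 10061.1, 11707.0 and 17759.8 normalized counts in the non-aerated libraries, against 9051.3, 9197.3, 6249.7 and 8661.3 in the aerated libraries, and the groups overlapped (0.48 ± 0.22, adjusted p = 0.156). RLM3, needed against necrotrophic fungi, had 29076.9, 25053.0, 27061.0 and 27250.7 in the non-aerated libraries, against 21154.2, 24305.0, 18514.4 and 21959.2 in the aerated libraries, with no overlap (0.34 ± 0.11, adjusted p = 0.0503). The log2 fold changes of the receptor pair RPS4 and RRS1 were 0.15 ± 0.15 and 0.26 ± 0.14, and those of the pair CSA1 and CHS3 were -0.07 ± 0.14 and 0.21 ± 0.12. RPP5 had 0.22 ± 0.16, with 33% of its 100-base stretches repeated, and SOC3 had 0.44 ± 0.24, with 61.7% of its span overlapped. With DESeq2 on the recovered reads RLM3 passed (adjusted p = 0.0116). TN2 and RLM1 were too low to test, with no library above 21.1 normalized counts. CHS1 was not tested either, and 92.9% of its span lies under SOC3 on the opposite strand, so its level is not known from these counts.

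Of the 7 CC sensors tested from the list of known receptors 1 was higher and none was lower, beside the 12.4% and 10.0% of all genes. RPM1, which guards RIN4 against bacterial effectors, was higher in every non-aerated library. It had 1990.3, 2200.8, 2084.4 and 1870.8 normalized counts in the non-aerated libraries, against 1087.7, 1429.9, 791.1 and 982.7 in the aerated libraries (0.95 ± 0.16, adjusted p = 0.00278). In this gene library 8 was the lowest of the non-aerated libraries. AT1G50180, known as CAR1, a receptor for conserved bacterial effectors, had 250.9, 345.2, 158.4 and 266.7 in the non-aerated libraries, against 136.1, 113.1, 65.9 and 85.1 in the aerated libraries (1.34 ± 0.28, adjusted p = 0.00753). The groups did not overlap in either gene, and both were called in all 8 fits that left out a library. The other CC sensors described here were not called. SUMM2 had -0.33 ± 0.15 (adjusted p = 0.144), RPP8 -0.14 ± 0.13 (0.457), RPP13 0.44 ± 0.21 (0.162) and ZAR1, a resistosome-forming receptor, 0.47 ± 0.22 (0.154). The span of ZAR1 is 79% overlapped by another annotated gene and that of RPP13 36.9%. LOV1, whose description lacks the words of the rule, had 0.11 ± 0.12 (0.567).

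Of the 5 helper NLRs, through which many sensors signal, 1 was called higher and none lower, beside 12.4% and 10.0% of all genes tested. So few genes do not set the helpers apart from these shares. ADR1 had 774.0, 984.9, 1056.5 and 1286.9 normalized counts in the non-aerated libraries, against 784.5, 649.9, 385.0 and 647.4 in the aerated libraries (0.76 ± 0.22, adjusted p = 0.035). The groups overlapped, and the call remained in 2 of the 8 fits that left out a library. ADR1-L1 averaged 8057 ± 1656 normalized counts in non-aerated and 5788 ± 1219 in aerated shoots (0.479 ± 0.175, adjusted p = 0.0769). NRG1.1 averaged 1635 ± 509 in non-aerated and 1100.0 ± 106 in aerated shoots, without overlap (0.53 ± 0.19, adjusted p = 0.0654). With DESeq2 on the recovered reads ADR1-L1 and NRG1.1 passed the threshold (adjusted p = 0.0475 and 0.024). ADR1-L2 (0.23 ± 0.23) and NRG1.2 (0.05 ± 0.20) passed with neither limma, edgeR nor DESeq2. The span of ADR1-L1 is 38.8% overlapped by another annotated gene.

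Neighbouring genes of the family gave mixed calls. Members separated by at most 2 other coding genes formed 42 groups that held 117 of the 193 genes, and 19 of the 36 higher genes lay in 14 of them. AT5G41740 and AT5G41750 formed the only group in which 2 or more genes were tested and all were called. In the RPS6 group, AT5G46450 to AT5G46520, 3 of 5 tested genes were higher: RPS6, AT5G46510 (1.16 ± 0.20, adjusted p = 0.00334) and AT5G46450 (0.50 ± 0.16, adjusted p = 0.0438, a call in 3 of the 8 fits that left out a library). AT5G46510 has 60.5% of its 100-base stretches repeated elsewhere, so its count is uncertain. In the RPP4, RPP5 and SNC1 group, 2 of 8 tested genes were higher, RPP4 and AT4G16960, with a range of -0.18 to 1.07, and AT4G16960 has 54.5% repeated. In the RPS4 and RRS1 group none of 4 tested genes was called, and these receptors are read from opposite strands 27 bases apart. AT4G19520 and AT4G19530 lie head to head 4463 bases apart. AT4G19530 had 7363.8, 4797.3, 10215.8 and 6386.8 normalized counts in the non-aerated libraries, against 10573.3, 11499.8, 8446.3 and 10153.8 in the aerated libraries (-0.54 ± 0.20, adjusted p = 0.0823), whereas AT4G19520 rose by 1.91. By chromosome, 9 of 22 tested TIR genes were higher on chromosome 1, 0 of 4 on chromosome 2, 5 of 6 on chromosome 3, 6 of 18 on chromosome 4 and 11 of 33 on chromosome 5, where 37.3% of all tested TIR genes were. On chromosome 3, 4 of the 5 lie in the stretch from AT3G44400 to AT3G44670 that holds RPP1, with log2 fold changes of 0.81 to 1.69. Of these, RPP1, AT3G44630 and AT3G44670 have 24.1%, 17.9% and 13.5% repeated.

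**Figure D4:**
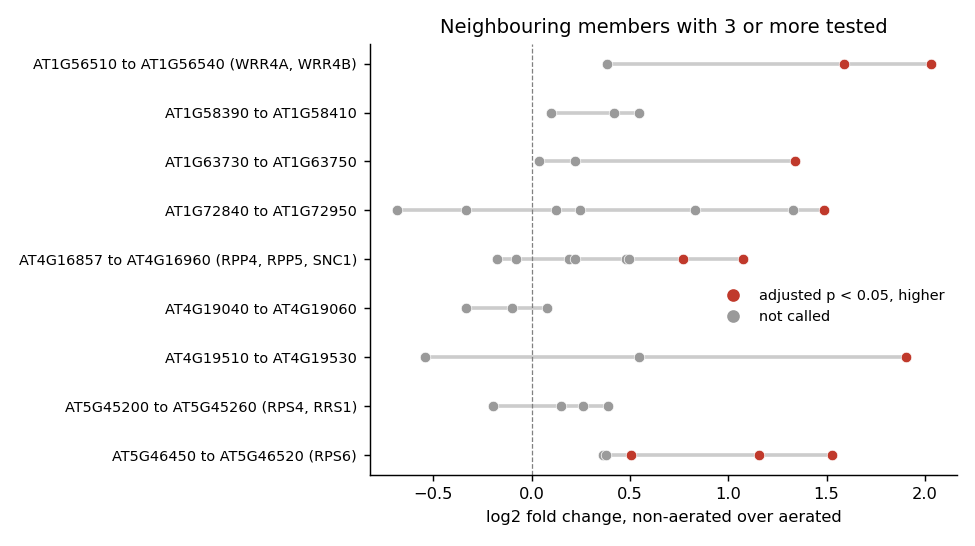
Log2 fold change (x axis, non-aerated over aerated) of the tested genes in each neighbour group with at least 3 tested genes (rows), with points coloured by the limma call and a grey bar over each group's range. The RPS6 group has 3 of 5 points called higher, the RPP4, RPP5 and SNC1 group 2 of 8, and the RPS4 and RRS1 group none of 4.

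The genes of other kinds taken by the words included the only decreases, both of receptor-like protein genes. These 2 were 12.5% of the 16 tested genes of that class, near the 10.0% of all genes tested that were lower. RLP42, which perceives fungal endopolygalacturonases, had 510.1, 532.8, 415.6 and 588.4 normalized counts in the non-aerated libraries, against 651.8, 947.9, 652.7 and 1037.7 in the aerated libraries (-0.66 ± 0.18, adjusted p = 0.0252). RLP19 had 1644.6, 2319.9, 1247.9 and 2596.3 in the non-aerated libraries, against 2603.0, 3346.3, 3109.0 and 3141.6 in the aerated libraries (-0.695 ± 0.21, adjusted p = 0.0382). Of the 100-base stretches of RLP42, 16.2% occur elsewhere too. The groups did not overlap in either gene, but the number of lower genes was 0 without aerated library 3, aerated library 7 or non-aerated library 2, and 5 without non-aerated library 8. RLP22 was higher (0.775 ± 0.21, adjusted p = 0.0269), a call in 5 of the 8 fits that left out a library. RLP23, the receptor of a microbial peptide, varied widely and was not called (1.11 ± 0.70, adjusted p = 0.287). AT5G05190, known as EDR4, a negative regulator of powdery mildew resistance, had 1537.8, 2935.6, 1067.2 and 1696.0 normalized counts in the non-aerated libraries, against 445.2, 638.4, 536.6 and 413.5 in the aerated libraries (1.75 ± 0.27, adjusted p = 0.00174).

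Some members could not be measured by this counting. There were 13 at 0 in every library, among them RPS2, a classical CC receptor, and RLP26, and 7 of the 13 have at least 80% of their span under another annotated gene. The span of RPS2 lies wholly under such genes, and its level is therefore not known from these counts. The near-identical genes AT1G58807, AT1G58848, AT1G59124 and AT1G59218 have all of their 100-base stretches repeated elsewhere. In all, 23 members have at least 10% repeated, 6 of them called. With only those members that have less than 10% repeated and less than 10% of the span overlapped, a choice made after seeing the data, 30 of 121 tested genes were higher, among them 26 of 69 TIR genes and 3 of 30 CC genes, where 12.4% of all genes tested, without this choice, were.

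Of 32 partners, regulators and salicylate genes, listed for their known roles, 30 were tested, 12 were higher and 1 lower, with 7 higher at least 2-fold, against the 12.4%, 10.0% and 5.24% of all genes tested. SAG101, the EDS1 partner that works with NRG1, had 1522.9, 2046.9, 1355.2 and 1656.0 normalized counts in the non-aerated libraries, against 704.7, 947.9, 657.9 and 727.4 in the aerated libraries (1.11 ± 0.15, adjusted p = 0.00102). NDR1 had 609.5, 718.0, 763.2 and 965.9 in the non-aerated libraries, against 309.1, 389.5, 361.3 and 300.9 in the aerated libraries (1.15 ± 0.15, adjusted p = 0.000893). The groups did not overlap in either gene. EDS1 had 960.8, 1639.2, 1423.3 and 2669.4 in the non-aerated libraries, against 1012.1, 1243.7, 719.9 and 994.7 in the aerated libraries, with overlap (0.68 ± 0.28, adjusted p = 0.106), and PAD4 had 0.77 ± 0.35 (adjusted p = 0.139). DESeq2 on the recovered reads called both (adjusted p = 0.0327 and 0.0373), and edgeR called neither.

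Of the chaperones that fold NLR proteins, HSP90.1 had 2391.7, 2521.9, 2147.1 and 1552.1 normalized counts in the non-aerated libraries, against 716.5, 512.8, 220.2 and 468.6 in the aerated libraries (2.26 ± 0.31, adjusted p = 0.00105). HSP90.2 rose by 0.94 ± 0.14 (adjusted p = 0.00156) and the co-chaperone SGT1A by 1.14 ± 0.15 (adjusted p = 0.000747). SGT1B (-0.03 ± 0.09) and RAR1 (0.11 ± 0.11) did not pass. The guarded or decoy kinases were higher by smaller steps, RIPK by 0.88 ± 0.15, ZED1 by 0.55 ± 0.15 and PBS1 by 0.34 ± 0.08 (adjusted p = 0.00328, 0.0284 and 0.0151), and RIN4 had 0.08 ± 0.15. The E3 ligase SAUL1 rose by 0.61 ± 0.14 and HR4 (AT3G50480), a homolog of the RPW8 resistance proteins, by 1.24 ± 0.32 (adjusted p = 0.0138 and 0.0221). The F-box protein CPR1, which marks NLR proteins for degradation, fell by 0.28 on the log2 scale (SE 0.08, adjusted p = 0.0342). Of the 8 fits that left out a library, 2 kept the call of CPR1, 4 that of ZED1, 5 those of HR4 and CBP60g and 7 that of PBS1.

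Salicylate genes split. EDS5, the transporter that exports the salicylate precursor from the chloroplast, had 557.5, 897.2, 838.6 and 1006.6 normalized counts in the non-aerated libraries, against 235.2, 204.4, 92.3 and 230.4 in the aerated libraries (2.17 ± 0.30, adjusted p = 0.00105). CBP60g, a transcription factor of salicylate synthesis, rose by 1.59 ± 0.41 (adjusted p = 0.0217), with library 8 highest. ICS1, the synthase itself, had 0.26 ± 0.19 (adjusted p = 0.36), and SARD1, FMO1 and ALD1 did not pass. The marker PR1 had 349.4, 2661.4, 893.9 and 1964.2 in the non-aerated libraries, against 345.2, 1163.8, 527.4 and 1661.1 in the aerated libraries, a wide spread in both groups (0.55 ± 0.65, adjusted p = 0.58). PR2 and PR5 had 0.15 ± 0.55 and 0.06 ± 0.21.

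**Figure D5:**
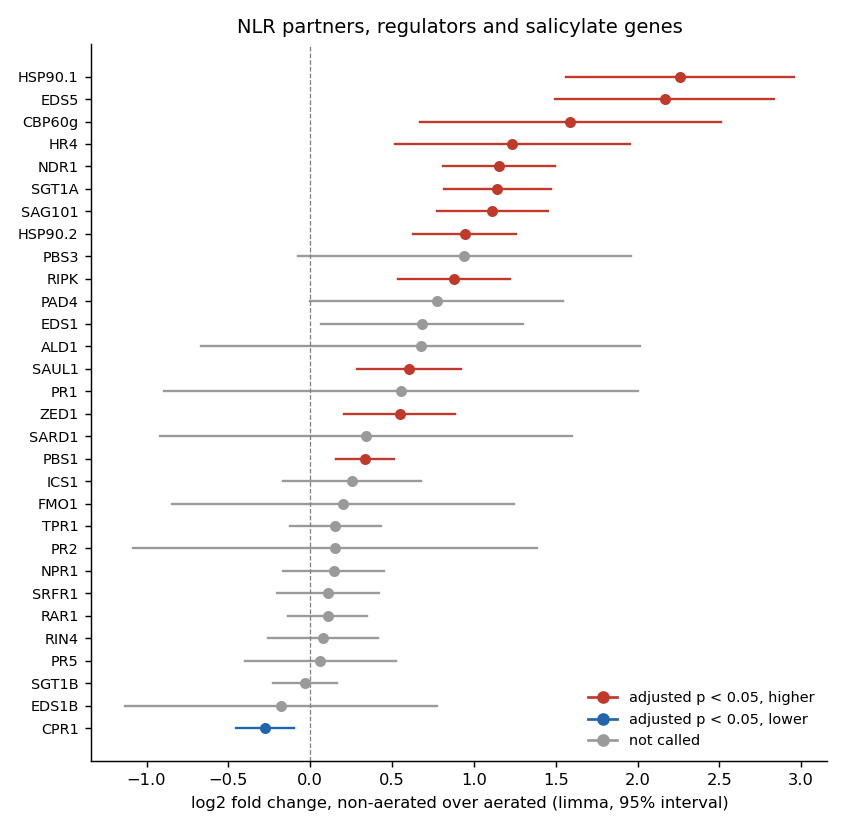
Log2 fold change (x axis, non-aerated over aerated) with its 95% interval from limma for the 30 tested partners, regulators and salicylate genes (rows), coloured by the call. HSP90.1 and EDS5 lead with 2.26 and 2.17, whereas EDS1, PAD4, ICS1 and the PR genes are not called.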

How the data were processed

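Shoot mRNA of the first set, 4 non-aerated and 4 aerated replicates, was used. The authors used HISAT2 2.0.4 for mapping single-end reads (genome TAIR10), then featureCounts 1.5.2 for counting per Araport11 gene, and scaled the counts by DESeq2 size factors. The deposited signal is this normalized count per gene and library, rounded to 1 decimal. The deposited columns carry treatment and a library number only, and so were mapped to groups. The 8 columns of the authors' comparisons (fold changes and p-values) and the second set's file were not used.

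The 20160 genes that reached 10 normalized counts in 4 or more libraries were tested with limma 3.58.1 (trend) on log2(normalized count + 1), non-aerated minus aerated, with Benjamini-Hochberg adjustment. In data simulated with a single fixed dispersion for all genes, the test recovered 36% of genes changed 1.5-fold and 84% of those changed 2-fold among 20160 genes. Members that varied more between libraries, such as AT1G66090 and RLP23, were not simulated, so these shares do not carry over to them. Whole reads were recovered from the step of the values: 100.0% of values in every library up to 400 reads were whole within 0.1 read, and on these edgeR 4.0.16 and DESeq2 1.42.0 were run as alternatives. Among all genes edgeR called 2523 higher, limma 2490. Annotation and sequences came from RefSeq TAIR10.1 (domain search: HMMER 3.4, MAFFT 7.526, E-value at most 1e-05). Named were the 10 largest changes in each direction among called members with a mean level of at least 50, known receptors, partners and neighbour groups. EDR4, RLP22, RLP23, CAR1, TAO1, LAZ5 and genes named for their sequence or a neighbour were added after their values were seen. Members and lists were chosen with earlier results of these data known. Nothing but the replicate labels says how separate the dishes were, so p-values measure the spread between these samples.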

Additional observations from a re-analysis of the deposited data

Results flagged for a closer look

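In 70 groups of 4 libraries examined, 35 named members in each treatment, 5 held a library far from its 3 companions. The limit used is passed by about 1 in 20 groups of independent, normally distributed values. Counts of genes that vary together between libraries are not such values, so the number to expect here is not known. Of the 5, 4 fell in non-aerated library 8. AT1G66090 had 4103.2 normalized counts there, against 503.6 to 951.3 in the other non-aerated libraries. AT5G41750 had 8270.4, against 2298.8 to 3185.7. AT5G41740 had 10457.6, against 3843.1 to 4743.1. RPP5 (AT4G16950) had 8992.2, against 6164.2 to 6544.4. The other was aerated library 5, in which WRR4B (AT1G56540) had 62.0 normalized counts, against 127.2 to 136.1 in the other aerated libraries. Calls for AT1G66090, AT5G41750, AT5G41740 and WRR4B remained in all 8 fits that left out a library. The cause was not tested.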

How the results depend on the processing

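No paired analysis was possible because the columns carry library numbers and no replicate numbers. Over edgeR, DESeq2, no filter on low values, pseudocounts of 0.5 and 10 and TMM factors, members higher numbered 33 to 46 and members higher at least 2-fold 26 to 29 (with only TIR, CC and other NB-ARC members 26). Leaving out each library gave 27 to 37 members higher, 22 to 29 at least 2-fold, 24 to 30 TIR, 2 to 4 CC, 9 to 13 partners and 0 to 5 members lower. The CC count was 6 with DESeq2. No member fell at least 2-fold under any of these settings. For 65 single genes followed, 838 values kept direction and side of the threshold, 40 lost the call, 10 gained it and 22 changed sign, none of the last with a call. FMO1 (AT1G19250) was -0.01952 with edgeR and -0.002039 with DESeq2, and -0.16 to 0.52 when a library was left out. Log2 ranges over left-out libraries were -0.0239 to 0.368 for ADR1-L2 (AT5G04720), -0.11 to 0.16 for NRG1.2 (AT5G66910), -0.000178 to 0.23 for RPS4 (AT5G45250), -0.203 to 0.0123 for CSA1 (AT5G17880), -0.43 to 0.18 for EDS1B (AT3G48080), -0.0203 to 0.185 for RIN4 (AT3G25070), -0.081 to 0.00167 for SGT1B (AT4G11260), -0.0212 to 0.163 for SRFR1 (AT4G37460), -0.16 to 0.75 for SARD1 (AT1G73805), -0.36 to 0.55 for PR2 (AT3G57260) and -0.10 to 0.20 for PR5 (AT1G75040). The causes were not tested. Of the 44 members not tested, 13 are listed at 0 in every library, and 7 of these lie mostly under another gene, so that their levels are not known.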
